A study of Saccharomyces cerevisiae with 12 samples.

Results

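The amino acid permeases described here are 10 plasma membrane transporters of budding yeast (Saccharomyces cerevisiae), BAP2, BAP3, TAT1, TAT2, GNP1, AGP1, CAN1, LYP1, HIP1 and DIP5. They were taken from the array as the gene spots annotated with one of these names or its locus, which gave 10 of 6252 gene probes, 1 probe per gene and 2 spots per probe. Transcript levels were measured on 12 one-colour arrays: 3 from a strain labelled as lacking HSP31, 3 from a strain lacking HSP32, 3 from a strain lacking HSP33 and 3 from wild type. HSP31, HSP32 and HSP33 encode proteins of the DJ-1 superfamily. The cells of all 12 samples grew in synthetic complete medium, which supplies amino acids, and were harvested at the diauxic shift, when glucose runs out. The parental strain and how each deletion was made are not given in the sources used here, so the only stated difference between groups is the deleted gene.

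Yeast takes up amino acids by proton-coupled permeases of 1 large family, most of which carry a small set of chemically related substrates. Amino acids outside the cell are sensed by Ssy1, a permease-like protein without transport activity, which works with Ptr3 and the protease Ssy5 as the SPS sensor. Ssy5 trims the transcription factors Stp1 and Stp2, which then enter the nucleus and induce a set of permease genes that includes AGP1, BAP2, BAP3, TAT1, GNP1 and DIP5. Permeases leave the endoplasmic reticulum with the help of Shr3 and are removed from the cell surface when arrestin-like adaptors bring them to the ubiquitin ligase Rsp5. The values below are transcript levels in whole cultures, so fewer cells with a transcript and less transcript per cell cannot be told apart.

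All 10 permease probes were among the 5863 gene probes that were tested, those above the negative controls on all arrays of at least 1 group. Of 120 permease values, 118 lay above that threshold, and no permease spot was saturated. Both exceptions, TAT1 and CAN1, fell on hsp32 deletion replicate 2, where the threshold was 284 intensity units against 35.4 to 53.6 on the other 11 arrays. A threshold from the median absolute deviation of the controls, chosen after seeing the data, passed 12 of 12 arrays for each permease. Median spot brightness ran from 607 to 1153 per array. Across genes, a description only since genes are no replicates, r lay between 0.980 and 0.997 for pairs of arrays in 1 group. HSP31 itself was below the threshold on all 3 hsp31 deletion arrays, while the probes for HSP32 and HSP33, near-identical genes, do not check the other labels.

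Several marker lists moved with the groups. The summed signal of 3 genes of glucose-grown cells (HXT3, HXK2, MIG2) was 74486 to 77666 in the hsp31 deletion, 81551 to 83590 in the hsp32 deletion and 77969 to 87022 in the hsp33 deletion, against 14254 to 16000 in wild type. The sum over 4 genes of cells past the shift (ADH2, ICL1, FBP1, PCK1) was 34865 to 39313, 13754 to 19285 and 22081 to 30634 in the same 3 deletions, against 43479 to 56281 in wild type. ICL1, the brightest of these, measured log2 -0.25 in the hsp31 deletion (limma adjusted p = 0.198). There ADH2, FBP1 and PCK1 measured -0.36, -0.96 and -0.73 (limma adjusted p = 0.0440, 7.57e-05 and 0.00143). Mating-type markers also differed. The sum over 4 alpha-cell genes was 1340 to 1522 in the hsp31 deletion, 1342 to 1453 in the hsp32 deletion and 9661 to 10628 in the hsp33 deletion, against 1403 to 1449 in wild type. The sum over 5 a-cell genes was 14853 to 16057 in the hsp31 deletion, 15685 to 18085 in the hsp32 deletion and 2293 to 2395 in the hsp33 deletion, against 6455 to 7072 in wild type. The part of growth stage and of strain background in the permease results was not tested.

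Against wild type, BAP3, AGP1 and HIP1 were higher and BAP2 was lower in each of the 3 deletions, by the limma fit across all tested probes with Benjamini-Hochberg adjustment at 0.05. The 3 comparisons share the same wild-type arrays. In the hsp31 deletion 4 permeases passed as higher (BAP3, AGP1, DIP5, HIP1) and 2 as lower (BAP2, CAN1), beside 25.7% and 30.4% of all tested probes, or 56.1% in either direction. In the hsp32 deletion 3 were higher (BAP3, HIP1, AGP1) and 4 lower (CAN1, GNP1, TAT2, BAP2), beside 33.3% and 36.7%, or 70.0% in either direction. In the hsp33 deletion 3 were higher (BAP3, AGP1, HIP1) and 4 lower (BAP2, GNP1, TAT2, LYP1), beside 29.0% and 32.4%, or 61.4% in either direction. These shares of the 10 permeases are near those of all tested probes, so the number of changed permeases does not set the family apart. The arrays of the 2 groups did not overlap for 7 permeases in each comparison, beside 63.9% of all tested probes for hsp31, 75.9% for hsp32 and 72.0% for hsp33. The 10 permeases had a median log2 change of 0.13 in the hsp31 deletion, -0.15 in the hsp32 deletion and -0.19 in the hsp33 deletion, beside -0.03, -0.04 and -0.03 over all tested probes.

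**Figure D1:**
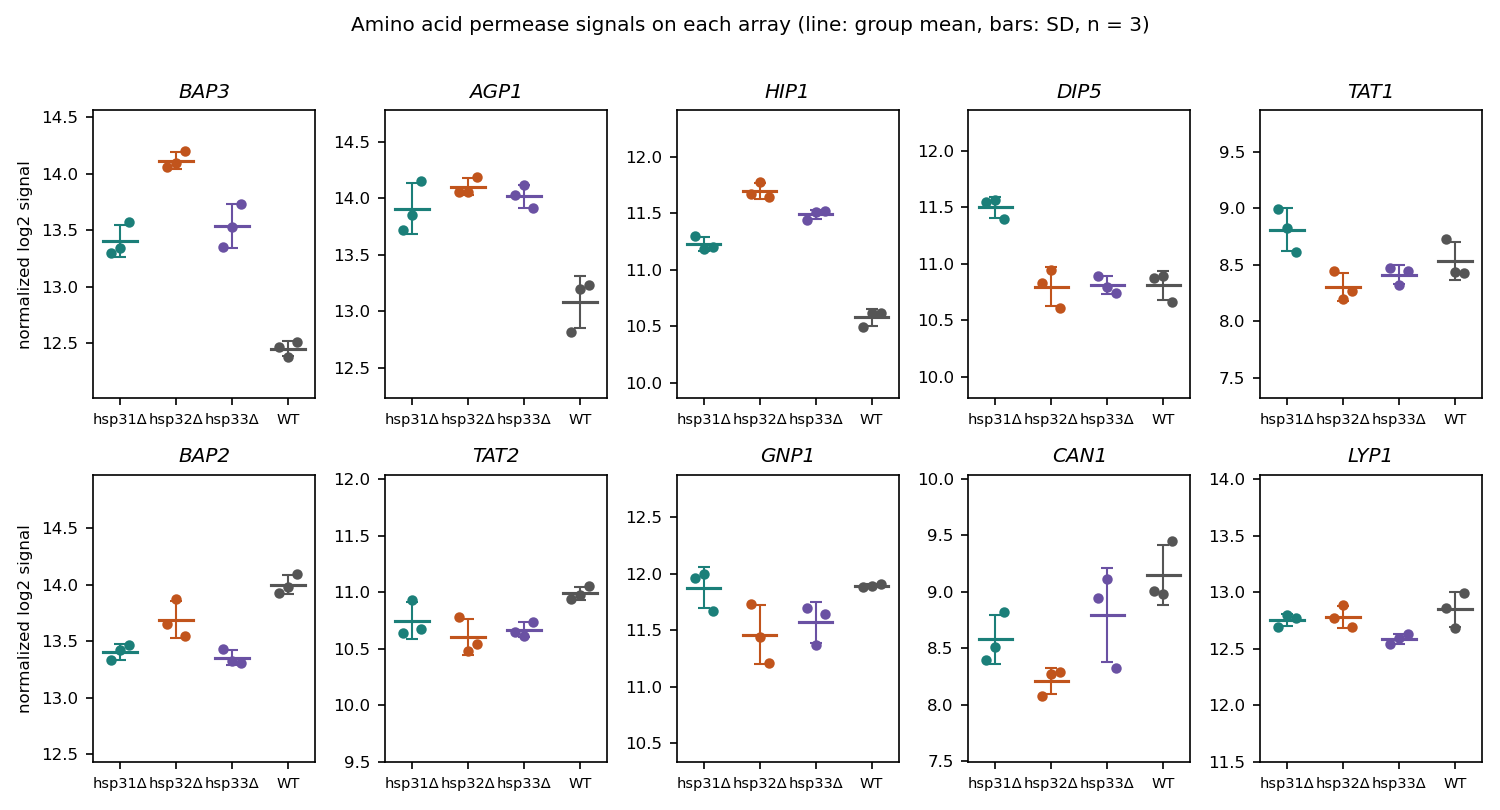
Normalized log2 signal of each permease (vertical axes, each spanning the same range) on every array, grouped as hsp31, hsp32 and hsp33 deletion (hsp31Δ, hsp32Δ, hsp33Δ) and wild type (WT), with the group mean as a line and the SD as bars (n = 3). BAP3, AGP1 and HIP1 lie above all wild-type arrays in the 3 deletions and BAP2 below them, while DIP5 stands apart in the hsp31 deletion.

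BAP2 and BAP3 both encode permeases for the branched-chain amino acids leucine, isoleucine and valine, and their transcripts moved in opposite directions. BAP3 (YDR046C) had normalized log2 signals of 13.30, 13.35 and 13.57 in the hsp31 deletion, 14.06, 14.09 and 14.20 in the hsp32 deletion and 13.35, 13.53 and 13.73 in the hsp33 deletion, against 12.46, 12.38 and 12.51 in wild type. Every deletion array was above every wild-type array, and the hsp32 deletion arrays were the highest of all. The rise was 1.94-fold in the hsp31 deletion (log2 0.96 ± 0.11 SE, adjusted p = 5.44e-06), 3.17-fold in the hsp32 deletion (1.67 ± 0.11, adjusted p = 7.64e-09) and 2.12-fold in the hsp33 deletion (1.09 ± 0.11, adjusted p = 9.83e-07), from limma with 3 arrays per group.

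BAP2 (YBR068C), the main leucine permease, had log2 signals of 13.33, 13.43 and 13.47 in the hsp31 deletion, 13.66, 13.87 and 13.55 in the hsp32 deletion and 13.43, 13.33 and 13.31 in the hsp33 deletion, against 13.92, 13.99 and 14.10 in wild type. All 9 deletion arrays were below the lowest wild-type array, by the least on hsp32 deletion replicate 2. BAP2 fell 1.51-fold in the hsp31 deletion (log2 -0.59 ± 0.095, limma adjusted p = 1.40e-04), 1.24-fold in the hsp32 deletion (-0.31 ± 0.095, adjusted p = 0.00995) and 1.56-fold in the hsp33 deletion (-0.64 ± 0.095, adjusted p = 4.93e-05). The change in the hsp32 deletion did not pass within either slide alone, at log2 -0.35 on slide 1 and -0.27 on slide 2. Slide 1 holds a single array of the hsp32 and of the hsp33 deletion. Slide 2 holds a single array of the hsp31 deletion and of wild type. A call lost within a slide, here and below, can therefore reflect the few arrays and does not show that the slide mattered.

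TAT1 and TAT2 encode the permeases for tyrosine and tryptophan, TAT2 being the high-affinity tryptophan carrier. TAT1 (YBR069C), the next gene to BAP2 on chromosome II, gave log2 signals of 8.99, 8.83 and 8.61 in the hsp31 deletion, 8.44, 8.19 and 8.27 in the hsp32 deletion and 8.47, 8.32 and 8.44 in the hsp33 deletion, against 8.73, 8.44 and 8.43 in wild type. Its groups overlapped wild type in every comparison, and TAT1 did not pass the threshold in the hsp31 (log2 0.28 ± 0.12, limma adjusted p = 0.0528), hsp32 (-0.23 ± 0.12, 0.0897) or hsp33 deletion (-0.12 ± 0.12, 0.382). On hsp31 deletion replicate 1 the 2 TAT1 spots differed by log2 0.87, the largest spot difference of any permease. The median over the arrays was 0.074 for TAT1. Several of the TAT1 calls turned on the processing. The hsp31 deletion passed with slide as a block (log2 0.28, limma adjusted p = 0.0306), with each array scaled to its 75th percentile (0.63, 0.00159) or its median (0.43, 0.00991), and without hsp31 deletion replicate 3 (0.38, 0.0178) or wild-type replicate 1 (0.38, 0.0203). The hsp32 deletion passed as lower with no background correction (-0.34, 0.0266) and on the authors' series values (-0.33, 0.0473).

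TAT2 (YOL020W) passed as lower in 2 deletions. Its log2 signals were 10.64, 10.93 and 10.68 in the hsp31 deletion, 10.78, 10.48 and 10.55 in the hsp32 deletion and 10.65, 10.61 and 10.74 in the hsp33 deletion, against 10.94, 10.97 and 11.05 in wild type. The groups did not overlap in any of the 3 comparisons, although hsp31 deletion replicate 2 came close to the lowest wild-type array. TAT2 fell 1.31-fold in the hsp32 deletion (log2 -0.39 ± 0.10, limma adjusted p = 0.00389) and 1.25-fold in the hsp33 deletion (-0.32 ± 0.10, 0.0137), and measured -0.24 ± 0.10 in the hsp31 deletion (0.0593). The hsp31 value passed with slide as a block (log2 -0.24, limma adjusted p = 0.0444), with median scaling (-0.43, 0.00327), and without hsp31 deletion replicate 2 (-0.33, 0.0172) or hsp32 deletion replicate 1 (-0.24, 0.0432). The hsp33 call was lost without wild-type replicate 3 (-0.29, 0.0520) and within slide 1 (-0.26, 0.292) or slide 2 (-0.35, 0.0710), and the hsp32 call within slide 1 (-0.21, 0.359).

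AGP1, a broad-range permease that carries asparagine, glutamine and other neutral amino acids, and GNP1, the high-affinity glutamine permease, also parted. AGP1 (YCL025C) had log2 signals of 13.72, 13.85 and 14.16 in the hsp31 deletion, 14.06, 14.06 and 14.19 in the hsp32 deletion and 14.03, 14.12 and 13.91 in the hsp33 deletion, against 12.82, 13.20 and 13.24 in wild type. The lowest deletion array exceeded the highest wild-type array, and the 3 deletions overlapped one another. AGP1 was higher 1.77-fold in the hsp31 deletion (log2 0.82 ± 0.13, limma adjusted p = 1.09e-04), 2.03-fold in the hsp32 deletion (1.02 ± 0.13, 7.06e-06) and 1.91-fold in the hsp33 deletion (0.93 ± 0.13, 2.64e-05).

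GNP1 (YDR508C) gave log2 signals of 11.96, 11.996 and 11.67 in the hsp31 deletion, 11.73, 11.44 and 11.21 in the hsp32 deletion and 11.70, 11.37 and 11.64 in the hsp33 deletion, against 11.89, 11.90 and 11.91 in wild type. The hsp32 and hsp33 deletion arrays all lay below wild type, whose 3 arrays were the tightest group of any permease, and the hsp31 deletion arrays lay on both sides of it. GNP1 fell 1.35-fold in the hsp32 deletion (log2 -0.43 ± 0.13, limma adjusted p = 0.0100) and 1.25-fold in the hsp33 deletion (-0.33 ± 0.13, 0.0469), and measured -0.02 ± 0.13 in the hsp31 deletion (0.905). With median scaling the hsp31 deletion passed as lower too (log2 -0.36, limma adjusted p = 0.0248). The hsp32 call was lost without hsp32 deletion replicate 3 (-0.31, 0.0540) and within slide 1 (-0.16, 0.359). The hsp33 call was lost without any 1 of hsp33 deletion replicates 2 and 3, hsp32 deletion replicate 2 or wild-type replicates 1, 2 and 3, with log2 values of -0.22, -0.36, -0.33, -0.33, -0.32 and -0.32. It was also lost with slide as a block (log2 -0.26, limma adjusted p = 0.0768), within slide 1 (-0.25, 0.184) and slide 2 (-0.36, 0.163), with no background correction (-0.32, 0.0543), with a normexp offset of 16 (-0.33, 0.0501), with no filter on dim probes (-0.33, 0.0510) and on the authors' series values (-0.28, 0.0511).

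The permeases of the basic amino acids showed each direction. HIP1 (YGR191W), the high-affinity histidine permease, had log2 signals of 11.30, 11.19 and 11.20 in the hsp31 deletion, 11.67, 11.78 and 11.65 in the hsp32 deletion and 11.44, 11.51 and 11.52 in the hsp33 deletion, against 10.50, 10.62 and 10.62 in wild type. Its 4 groups did not overlap one another, in the order hsp32, hsp33, hsp31 deletion and wild type from high to low. The steps between neighbouring deletions did not pass. They were log2 0.26 from hsp31 to hsp33 (limma adjusted p = 0.0728) and 0.21 from hsp33 to hsp32 (limma adjusted p = 0.0796). HIP1 was higher 1.57-fold in the hsp31 deletion (log2 0.65 ± 0.078, limma adjusted p = 1.20e-05), 2.17-fold in the hsp32 deletion (1.12 ± 0.078, 1.99e-08) and 1.88-fold in the hsp33 deletion (0.91 ± 0.078, 3.02e-07).

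LYP1 (YNL268W), the lysine permease, varied least of the 10 over the 12 arrays. Its log2 signals were 12.69, 12.80 and 12.78 in the hsp31 deletion, 12.77, 12.89 and 12.69 in the hsp32 deletion and 12.54, 12.59 and 12.63 in the hsp33 deletion, against 12.86, 12.69 and 12.99 in wild type. The hsp33 deletion arrays were below all others, and those of the other 2 deletions overlapped wild type. LYP1 fell 1.20-fold in the hsp33 deletion (log2 -0.26 ± 0.091, limma adjusted p = 0.0242), and measured -0.09 ± 0.091 in the hsp31 deletion (0.412) and -0.06 ± 0.091 in the hsp32 deletion (0.546). The hsp33 call was lost without any 1 of hsp33 deletion replicates 1 and 2 (log2 -0.23 and -0.26) or wild-type replicates 1 and 3 (-0.25 and -0.19), and within slide 1 (-0.30) or slide 2 (-0.12). Scaling gave calls in the other 2 deletions: in the hsp31 deletion it passed as lower with the 75th percentile (log2 -0.28, limma adjusted p = 0.0241) and with the median (-0.48, 9.69e-04), and in the hsp32 deletion with the median (-0.48, 6.87e-04).

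CAN1 (YEL063C), the arginine permease, is also a common selection marker in laboratory strains, since its loss gives resistance to canavanine. All 4 groups had CAN1 signal, with background-subtracted intensities of 308 to 356 in the hsp31 deletion, 168 to 249 in the hsp32 deletion and 262 to 334 in the hsp33 deletion, against 347 to 416 in wild type. After normalization the log2 signals were 8.39, 8.51 and 8.82 in the hsp31 deletion, 8.08, 8.27 and 8.29 in the hsp32 deletion and 8.94, 9.11 and 8.32 in the hsp33 deletion, against 9.01, 8.98 and 9.45 in wild type. The hsp31 and hsp32 deletion arrays lay below all wild-type arrays. In the hsp33 deletion replicate 3 was low, and replicate 2 was above the 2 lower wild-type arrays.

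CAN1 fell 1.48-fold in the hsp31 deletion (log2 -0.57 ± 0.19, limma adjusted p = 0.0184) and 1.91-fold in the hsp32 deletion (-0.94 ± 0.19, 4.56e-04), and measured -0.36 ± 0.19 in the hsp33 deletion (0.112). In the hsp31 deletion the call was lost without hsp31 deletion replicate 1 (log2 -0.48, limma adjusted p = 0.0555) or wild-type replicate 3 (-0.42, 0.0950), and with each array scaled to its 75th percentile (-0.22, 0.355) or to its median (-0.43, 0.0775). The hsp33 deletion split by slide: CAN1 was lower on slide 1, which holds hsp33 replicate 3 (log2 -0.91, limma adjusted p = 0.0189), but not on slide 2, which holds replicates 1 and 2 (0.04, 0.817), and the change passed with slide as a block (-0.44, 0.0428) or without hsp33 deletion replicate 2 (-0.52, 0.0362).

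DIP5 (YPL265W), the permease of glutamate and aspartate, passed the threshold in 1 deletion. Its log2 signals were 11.55, 11.56 and 11.39 in the hsp31 deletion, 10.83, 10.95 and 10.61 in the hsp32 deletion and 10.89, 10.79 and 10.74 in the hsp33 deletion, against 10.87, 10.89 and 10.66 in wild type. The 3 hsp31 deletion arrays stood above the other 9, which overlapped. DIP5 was 1.62-fold higher in the hsp31 deletion (log2 0.69 ± 0.10, limma adjusted p = 7.64e-05). The 95% interval of its change ran from -0.23 to 0.21 in the hsp32 deletion and from -0.22 to 0.22 in the hsp33 deletion (limma adjusted p = 0.924 and 0.994).

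**Figure D2:**
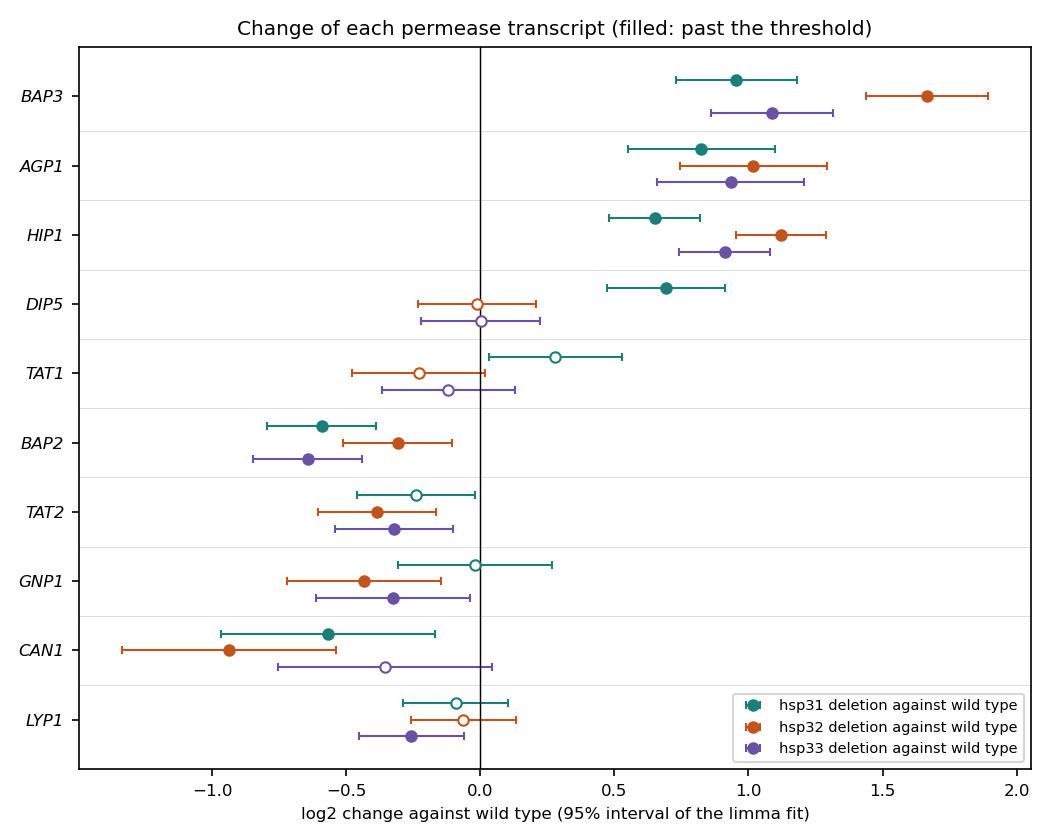
Log2 change of each permease against wild type (horizontal axis) with the 95% interval of the limma fit, for the hsp31, hsp32 and hsp33 deletions, filled where the adjusted p is under 0.05. The intervals of BAP3, AGP1 and HIP1 lie right of 0 and those of BAP2 left of 0 in all 3 deletions, and the DIP5 interval leaves 0 in the hsp31 deletion alone.

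The sizes of these changes moved with the scaling between arrays. With each array scaled to its 75th percentile the median change of all tested probes became 0.13 in the hsp31 deletion, 0.17 in the hsp32 deletion and 0.16 in the hsp33 deletion, and with scaling to the array median -0.08, -0.10 and -0.07. BAP3 then measured 0.77, 1.52 and 0.95 on the log2 scale with the 75th percentile and 0.57, 1.25 and 0.72 with the median, in the same order of deletions. AGP1 measured 0.60, 0.88 and 0.77, and 0.40, 0.61 and 0.55. HIP1 measured 0.72, 1.15 and 0.97, and 0.52, 0.88 and 0.75. For BAP2 the fall was larger under both, at -0.88, -0.54 and -0.88, and -1.08, -0.81 and -1.10. These 12 changes kept their direction and passed under both scalings, while TAT1 turned positive in the hsp32 deletion with the 75th percentile and in the hsp33 deletion with either scaling. With median scaling 3 permeases beside BAP2 passed as lower in every deletion, at log2 -0.36, -0.83 and -0.67 for GNP1, -0.48, -0.48 and -0.63 for LYP1 and -0.43, -0.60 and -0.52 for TAT2 in the same order. This scaling called 2071, 2371 and 2137 of all 5863 tested probes lower in the hsp31, hsp32 and hsp33 deletions. CAN1 in the hsp32 deletion measured -0.57 with the 75th percentile and -0.84 with the median, and passed under both.

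The authors' deposited tables list spots with an unadjusted p up to 0.05, and they hold 7, 8 and 8 of the 10 permeases for the hsp31, hsp32 and hsp33 deletions. In the authors' deposited tables the 2 BAP2 spots have ratios of deletion over wild type of 0.447 and 0.451 for hsp31, 0.499 and 0.516 for hsp32 and 0.429 and 0.449 for hsp33. The limma fit gave smaller falls, of 1.51-fold for hsp31, 1.24-fold for hsp32 and 1.56-fold for hsp33. Ratios above 1 in the authors' deposited tables have lost their decimal point, so they give a side and no size: BAP3 and HIP1 stood above 1 for all 3 deletions, AGP1 for hsp32 and hsp33, and DIP5 for hsp31. On the other side, the authors' deposited tables hold calls that the limma fit does not make: for hsp31 both GNP1 spots (0.710 and 0.776) and 1 TAT2 spot (0.705), and for hsp33 1 DIP5 spot (0.783). LYP1 has ratios below 1 in all 3 of the authors' deposited tables, from 0.580 to 0.693. The limma fit called LYP1 lower for hsp33 alone. Its hsp31 spots (0.613 and 0.693) and hsp32 spots (0.636 and 0.658) are thus further calls that the fit does not make. Conversely, AGP1 and CAN1, which the limma fit called for hsp31, have no spot in the authors' deposited hsp31 table.

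Between deletions, the hsp32 deletion differed from the hsp31 deletion in 6 permeases. BAP3 (log2 0.71 ± 0.11, limma adjusted p = 1.62e-04), HIP1 (0.47 ± 0.078, 3.91e-04) and BAP2 (0.28 ± 0.095, 0.0308) were higher in the hsp32 deletion, 3 of 10 beside 19.8% of all tested probes. DIP5 (-0.70 ± 0.10, 1.41e-04), TAT1 (-0.51 ± 0.12, 0.00335) and GNP1 (-0.41 ± 0.13, 0.0252) were lower in it, 3 of 10 beside 17.8%, for 6 of 10 beside 37.6% in either direction. The arrays of the 2 deletions did not overlap for 6 permeases, beside 46.9% of all tested probes, and GNP1 was called although its arrays overlapped. BAP2 was lost without any 1 of hsp31 replicates 1 and 2 or hsp32 replicates 1 and 2 (log2 0.25, 0.29, 0.30 and 0.19), with slide as a block (0.27, limma adjusted p = 0.0542) and with median scaling (0.27, 0.0654). GNP1 was lost without any 1 of hsp31 replicates 1 and 2 or hsp32 replicates 2 and 3 (-0.37, -0.35, -0.40 and -0.29). BAP2 (0.28 and 0.24), TAT1 (-0.47 and -0.38), GNP1 (-0.25 and -0.34) and HIP1 (0.43 and 0.51) did not pass within slide 1 or slide 2. BAP3 (0.57) and DIP5 (-0.61) did not pass within slide 2.

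The hsp33 and hsp31 deletions differed in DIP5 alone, which was 1.61-fold lower in the hsp33 deletion (log2 -0.69 ± 0.10, limma adjusted p = 0.00158), 1 of 10 beside 1.96% of all tested probes called lower. No permease was called higher in the hsp33 deletion, beside 2.87% of all tested probes, and 4.83% were called in either direction. Arrays of these 2 deletions did not overlap for 4 permeases, beside 27.8%. TAT1 measured -0.40 ± 0.12 (limma adjusted p = 0.0615) and passed without hsp31 deletion replicate 3 (-0.50, 0.0287).

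The hsp33 deletion was lower than the hsp32 deletion in BAP3 (log2 -0.58 ± 0.11, limma adjusted p = 0.00247) and BAP2 (-0.34 ± 0.095, 0.0247), 2 of 10 beside 9.14% of all tested probes. CAN1 was higher (0.58 ± 0.19, 0.0427), 1 of 10 beside 9.57%, for 3 of 10 beside 18.7% in either direction, and 5 permeases did not overlap, beside 34.5%. BAP2 was lost without hsp32 replicate 2 or any 1 of the 3 hsp33 replicates (log2 -0.25, -0.37, -0.32 and -0.31). CAN1 was lost without any 1 of 8 arrays (log2 0.42 to 0.62, limma adjusted p = 0.0517 to 0.192), namely hsp31 replicate 2, hsp32 replicates 1, 2 and 3, hsp33 replicates 1 and 2 and wild-type replicates 1 and 2.

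A factor common to all signals of an array cancels in the ratio of 2 signals of that array, although quantile normalization, which acts on each signal by its rank, does not. The change of 6 such ratios, for pairs chosen after their values were seen, was tested against wild type by exact two-sided permutation of 3 arrays against 3, which cannot go below p = 0.1, or 0.129 after adjustment over the 18 tests. BAP3 over BAP2 was higher by log2 1.47 to 1.65 on the hsp31 deletion arrays, 1.77 to 2.20 on the hsp32 deletion arrays and 1.47 to 1.97 on the hsp33 deletion arrays, against -0.06 to 0.09 in wild type, each relative to the wild-type mean. These are 2.92-fold, 3.93-fold and 3.32-fold changes of the ratio, with no overlap (exact p = 0.1 each, adjusted p = 0.129).

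AGP1 over GNP1 changed by log2 0.84 ± 0.26, 1.45 ± 0.23 and 1.26 ± 0.20 (hsp31, hsp32 and hsp33 in that order), and HIP1 over LYP1 by 0.74 ± 0.12, 1.18 ± 0.10 and 1.17 ± 0.10 (SE, n = 3 each, exact p = 0.1 throughout). Both ratios were higher on every deletion array than on any wild-type array. For the neighbouring genes TAT1 and BAP2, the ratio changed by log2 0.87 ± 0.21, 0.08 ± 0.20 and 0.52 ± 0.15 in the same order, and its hsp32 deletion arrays overlapped wild type (exact permutation p = 0.1, 1 and 0.1). In the hsp31 deletion TAT1 over BAP2 was highest on replicate 1 (1.13 relative to the wild-type mean), the array where the 2 TAT1 spots disagreed most. CAN1 over LYP1 changed by -0.48 ± 0.14, -0.87 ± 0.12 and -0.10 ± 0.27, and TAT1 over TAT2 by 0.52 ± 0.19, 0.16 ± 0.13 and 0.20 ± 0.13. The hsp33 deletion overlapped wild type in both of these ratios (exact permutation p = 0.9 and 0.3). The hsp32 deletion overlapped wild type in TAT1 over TAT2 too (exact permutation p = 0.4).

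**Figure D3:**
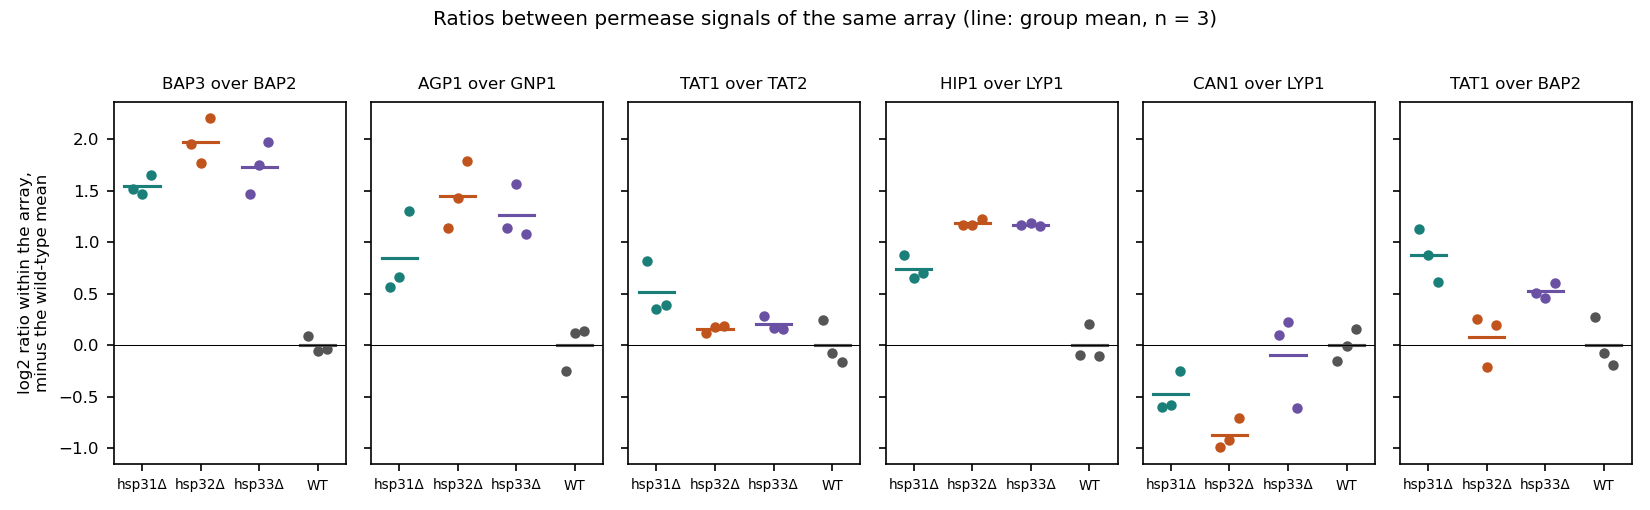
Log2 ratio of 2 permease signals within each array, relative to the mean of the wild-type arrays (vertical axis), for 6 pairs in the hsp31, hsp32 and hsp33 deletions (hsp31Δ, hsp32Δ, hsp33Δ) and wild type (WT), with lines at the group means (n = 3). BAP3 over BAP2 lies between 1.47 and 2.20 on all deletion arrays, above the wild-type arrays, and CAN1 over LYP1 is lowest in the hsp32 deletion.

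Other plasma membrane amino acid permeases of the same family also went both ways. Of 9 tested, 2 rose and 3 fell in the hsp31 deletion, 2 and 5 in the hsp32 deletion and 2 and 4 in the hsp33 deletion, with median log2 changes of -0.06, -0.52 and -0.29. MUP1, the high-affinity methionine permease, rose in all 3 (log2 0.78 ± 0.086, 1.25 ± 0.086 and 1.01 ± 0.086), and AGP3 fell in all 3 (-0.94 ± 0.15, -1.29 ± 0.15 and -0.98 ± 0.15). MUP3, the low-affinity methionine permease, fell in the hsp31 (-0.89 ± 0.096) and hsp33 deletions (-0.47 ± 0.096) and measured -0.15 ± 0.096 in the hsp32 deletion. PUT4, the proline permease, fell in the hsp32 deletion (-1.30 ± 0.23), and measured 0.22 ± 0.23 in the hsp31 and -0.29 ± 0.23 in the hsp33 deletion. AGP2, a regulator of carnitine and polyamine uptake, fell in the hsp32 (-1.11 ± 0.12) and hsp33 deletions (-0.59 ± 0.12) and measured -0.28 ± 0.12 in the hsp31 deletion. ALP1, a basic amino acid transporter similar to CAN1, fell in all 3 (-0.28 ± 0.098, -0.52 ± 0.098 and -0.27 ± 0.098). In this and the next 4 paragraphs, rose and fell mark changes past the limma threshold, 3 values in a row are for hsp31, hsp32 and hsp33, and no list was tested as a set. With the 75th percentile the median of these 9 in the hsp31 deletion turned to 0.02. The list counts stand beside the shares of all tested probes given above, 25.7%, 33.3% and 29.0% higher and 30.4%, 36.7% and 32.4% lower.

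Within the SPS pathway, 3 of 12 genes rose and 6 fell in the hsp31 deletion, 3 and 7 in the hsp32 deletion and 3 and 6 in the hsp33 deletion, with median log2 changes of -0.24, -0.35 and -0.26. The sensor gene SSY1 fell in all 3 deletions (log2 -0.71 ± 0.10, -0.85 ± 0.10 and -0.55 ± 0.10 for hsp31, hsp32 and hsp33). GRR1, an F-box protein required for signalling from the sensor, fell (log2 -0.43 ± 0.10, -0.83 ± 0.10 and -0.65 ± 0.10). ASI3, of the inner nuclear membrane complex that keeps unprocessed Stp1 and Stp2 from acting, fell (log2 -0.56 ± 0.092, -0.70 ± 0.092 and -0.66 ± 0.092). Its partner ASI1 fell in all 3 (-0.33 ± 0.078, -0.62 ± 0.078 and -0.43 ± 0.078), as did the protease gene SSY5 (-0.36 ± 0.087, -0.34 ± 0.087 and -0.37 ± 0.087). The 3 genes that rose, named after their values were seen, were the same in each deletion. They were the sensor subunit gene PTR3 (0.35 ± 0.11, 0.56 ± 0.11 and 0.43 ± 0.11), the activator gene DAL81 (0.28 ± 0.079, 0.35 ± 0.079 and 0.34 ± 0.079) and the casein kinase gene YCK2 (0.26 ± 0.10, 0.45 ± 0.10 and 0.26 ± 0.10). STP1 and STP2, also named after their values were seen, did not pass in the hsp31 deletion (log2 -0.05 ± 0.094 and -0.13 ± 0.14). Nor did they pass in the hsp32 deletion (0.15 ± 0.094 and -0.10 ± 0.14). With median scaling 1, 2 and 1 genes of this list rose, and with the 75th percentile 3, 6 and 4 fell. Of all 5863 tested probes, median scaling called 1431, 1784 and 1580 higher. The 75th percentile called 1357, 1626 and 1444 of them lower.

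Among genes for permease export, endocytosis and membrane domains, 0 of 13 rose and 7 fell in the hsp31 deletion, 1 and 9 in the hsp32 deletion and 0 and 8 in the hsp33 deletion, beside 30.4%, 36.7% and 32.4% of all tested probes lower, with median log2 changes of -0.28, -0.67 and -0.47. ECM21 fell in the same order of deletions (log2 -0.59 ± 0.14, -1.54 ± 0.14 and -0.99 ± 0.14), as did CSR2 (-0.79 ± 0.12, -1.05 ± 0.12 and -0.99 ± 0.12), both arrestin-like adaptors for Rsp5. RSP5 itself fell in all 3 (-0.49 ± 0.12, -0.89 ± 0.12 and -0.56 ± 0.12), and so did the adaptor gene ALY2 (-0.52 ± 0.077, -0.67 ± 0.077 and -0.47 ± 0.077). LDB19, another arrestin-like adaptor, was the gene that rose in the hsp32 deletion (0.44 ± 0.087), named after its value was seen. NCE102, a protein of the eisosome domain where Can1 gathers, also fell (log2 -0.68 ± 0.16, -1.52 ± 0.16 and -1.01 ± 0.16), and the eisosome core gene PIL1 fell in the hsp32 (-1.08 ± 0.15) and hsp33 deletions (-0.54 ± 0.15) and measured -0.28 ± 0.15 in the hsp31 deletion. Spots of NCE102 and PIL1 were saturated on 2 of the 3 wild-type arrays, which limits the size measured for their falls.

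Vacuolar amino acid transporters and other nitrogen transporters also went both ways. Of 11 vacuolar transporters tested of 12 listed, 3 rose and 5 fell in the hsp31 deletion, 2 and 6 in the hsp32 deletion and 2 and 6 in the hsp33 deletion, with median log2 changes of -0.08, -0.29 and -0.24. AVT6, which exports acidic amino acids from the vacuole, fell (log2 -0.90 ± 0.12, -1.18 ± 0.12 and -0.93 ± 0.12), and YPQ1, a vacuolar transporter of basic amino acids, rose (0.69 ± 0.080, 0.94 ± 0.080 and 0.77 ± 0.080). ATG22 (-0.57 ± 0.090, -1.01 ± 0.090 and -0.78 ± 0.090) and AVT3 (-0.60 ± 0.084, -0.80 ± 0.084 and -0.64 ± 0.084) fell in all 3. AVT7 was among the largest falls of the list in the hsp32 deletion (-0.90 ± 0.10). Of 9 peptide, ammonium and other nitrogen transporters, 2 rose and 3 fell, 2 and 5, and 2 and 4 in the same order of deletions, with medians of -0.15, -0.41 and -0.23, which the 75th percentile turned to 0.01 for hsp31 and 0.03 for hsp33. PTR2, the di- and tripeptide transporter and a known target of the SPS sensor, rose (0.95 ± 0.10, 0.87 ± 0.10 and 0.67 ± 0.10), as did the ammonium permease MEP2 (0.59 ± 0.11, 1.08 ± 0.11 and 0.59 ± 0.11). DUR3, for urea, fell (log2 -0.83 ± 0.090, -1.03 ± 0.090 and -0.69 ± 0.090), as did DAL5, for allantoate (-0.75 ± 0.11, -0.87 ± 0.11 and -0.68 ± 0.11).

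Regulators of nitrogen use and strain markers complete these lists. Of 6 regulators, 3 rose and 1 fell in the hsp31 deletion and 3 rose and 2 fell in each of the hsp32 and hsp33 deletions, with median log2 changes of 0.27, 0.34 and 0.28. GCN4, the activator of amino acid synthesis genes, rose (1.43 ± 0.14, 1.45 ± 0.14 and 1.23 ± 0.14), as did GLN3 (0.52 ± 0.093, 0.61 ± 0.093 and 0.50 ± 0.093). URE2 rose in all 3 as well (0.41 ± 0.098, 0.77 ± 0.098 and 0.59 ± 0.098). The repressor gene DAL80 fell (log2 -0.69 ± 0.12, -0.92 ± 0.12 and -0.72 ± 0.12). GAT1, named after its value was seen, fell in the hsp32 deletion (-0.45 ± 0.10) and measured -0.08 ± 0.10 in the hsp31 deletion. Its hsp33 value is not given here. Of 6 auxotrophic marker genes tested of 7 listed, whose loss makes cells depend on uptake, 3 rose and 0 fell in the hsp31 deletion, 5 and 0 in the hsp32 deletion and 2 and 1 in the hsp33 deletion, with medians of 0.59, 1.59 and 0.12, the last turned to -0.04 by median scaling. HIS3 rose in the hsp31 (0.96 ± 0.12) and hsp32 deletions (1.33 ± 0.12) and was lower in the hsp33 deletion (-1.33 ± 0.12). LEU2 (1.09 ± 0.12, 1.85 ± 0.12 and 0.97 ± 0.12) and MET17 (1.61 ± 0.12, 2.39 ± 0.12 and 2.08 ± 0.12) rose in all 3. URA3 was above background on all 3 hsp32 deletion arrays and on no wild-type array. The part of marker genotype in the levels of the matching permeases, such as HIP1 beside HIS3, was not tested.

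**Figure D4:**
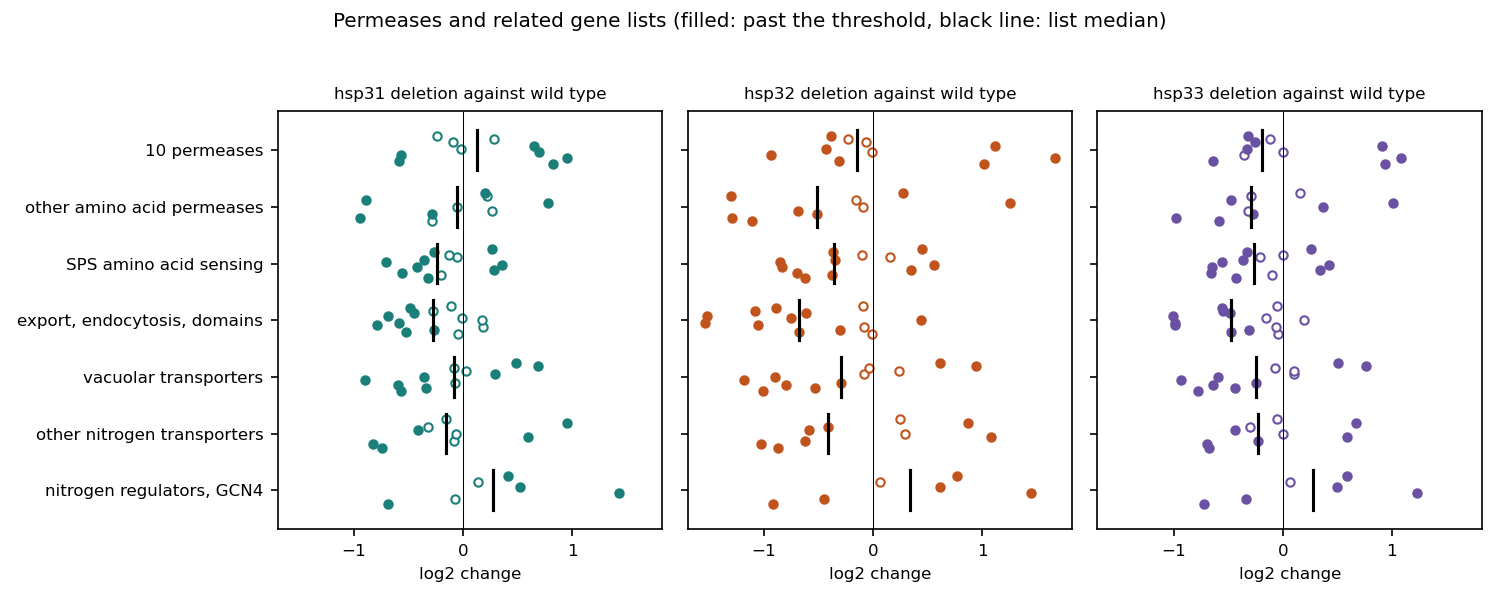
Log2 change against wild type (horizontal axis) of each tested gene in the 10 permeases and 6 related lists (vertical axis), for the hsp31, hsp32 and hsp33 deletions, filled where the limma adjusted p is under 0.05, with the list median as a black line. The permeases spread to both sides of 0 in each deletion, and of the genes of export, endocytosis and membrane domains 7, 9 and 8 of 13 fell.

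The permeases differed in how alike their patterns over the 12 arrays were, measured as the root mean square (RMS) difference of log2 signals after each gene's mean was removed. TAT2 and GNP1 were the closest pair of the 10 (0.157), followed by TAT1 and GNP1 (0.163), and BAP3 and CAN1 the farthest (0.959). BAP2 and BAP3, which share substrates, differed by 0.786. Among 4609 other genes, the nearest to BAP3 were SDT1 (0.084) and RPS30B (0.092), those nearest to AGP1 were CAF16 and MSB1 (0.117 each), and those nearest to HIP1 were RAD5 (0.088) and MET10 (0.091). NCA3 (0.105) and NPL3 (0.117) came nearest to BAP2, and ITR1 (0.169) and PSD1 (0.177) to DIP5. TAT1 was nearest to CHM7 (0.106) and SGF29 (0.119), TAT2 to MET30 and VMA16 (0.069 each), and GNP1 to NMA1 and CUB1 (0.095 each). For CAN1 these were PCD1 (0.157) and BXI1 (0.179), and for LYP1 CWC21 (0.067) and MOT3 (0.079). Genes that varied little can lie near any gene that varied little, so a small difference for LYP1 or TAT2 says less than one for BAP3.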

How the data were processed

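Per the labels, each of 12 samples gave Cy3-labelled material for 1 array. The deposited scanner files give foreground and local background intensity per spot, not normalized, with saturation as a percent of a spot's pixels. The series values that the authors deposited are also an intensity, equal to the median foreground in 100% of spots. The authors' deposited comparison tables give a ratio per spot, whose test is not stated, and an unadjusted p-value. A genome build and the scanner software are not given in the sources used here, and no positions are printed.

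Intensities were background-corrected (normexp, offset 50), quantile-normalized over gene spots, put on the log2 scale and averaged over the 2 spots of a probe. The detection threshold was 2 SD over the median of 77 negative control spots. Of 6252 probes, 5863 passed it on each array of 1 or more groups and were tested. One limma model (limma 3.58.1, R 4.3.3) over 12 arrays and 4 groups, with 8 residual degrees of freedom, gave 6 comparisons, each adjusted by Benjamini-Hochberg at 0.05. Log2 changes are given ± SE of the fit (3 arrays per group). No label says that replicates were separate cultures, so p-values rest on a spread between samples that may be technical. The number of arrays limits the precision. All 10 permeases are named in every comparison. From each related list up to 4 genes per comparison with wild type are named, those past the threshold with the largest change whose arrays do not overlap. The permeases and the lists were chosen with earlier results of these data known. Slides were inferred from repeated array positions and scan offsets: slide 1 holds hsp31 deletion replicates 1 and 2, hsp32 deletion 1, hsp33 deletion 3 and wild type 1 and 3, and slide 2 the other 6 arrays. Replicate numbers were not taken to pair samples, since no label says what they share. With group means removed, the mean r between same-numbered arrays was 0.035 (number 1), -0.033 (number 2) and -0.013 (number 3). On the other hand, 8 of the 12 arrays best matched an array of their own number in another group. Results with replicate number as a block are therefore given below. Alternatives were 2 other scalings, other background corrections and filters on dim probes, the authors' series values, fits to 2 groups, slide or replicate number as a block, fits within a slide, array weights and leaving out each array. The limma step was tested on simulated data.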

Additional observations from a re-analysis of the deposited data

How the results depend on the processing

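Across 26 alternatives and 60 permease results (10 genes in 6 comparisons), 20 results kept their direction and side of the threshold in every one, 16 lost a call in at least 1, 11 gained one and 17 turned direction in at least 1. The changes of BAP3, AGP1 and HIP1 against wild type kept theirs in all 3 deletions, and so did BAP2 in the hsp31 and hsp33 deletions. Where a cause is not named, it was not tested.

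With the replicate block, permeases called lower in the hsp33 against the hsp31 deletion numbered 2 (1 without the block), TAT1 being added (log2 -0.40, limma adjusted p = 0.0238), and those higher in the hsp33 against the hsp32 deletion 0 (1 without it), and no other count left 1.5 times its value. Of all 5863 tested probes, the block called 153 lower and 544 higher in these 2 comparisons (115 and 561 without it). The block also gave calls to TAT1 against wild type, higher in the hsp31 (log2 0.28, adjusted p = 0.0214) and lower in the hsp32 deletion (-0.23, 0.0403). Of the 12 arrays, 8 matched an array of their own number in another group best. Scaling to the 75th percentile gave 0 higher in the hsp33 against the hsp32 deletion, beside 460 of the 5863 tested probes. Scaling to the median gave 4 lower in the hsp31 deletion against wild type, and 0 higher and 1 lower in the hsp33 against the hsp32 deletion. All tested probes gave 2071, 563 and 405 in that order. Keeping probes above background on all arrays, which removes TAT1 and CAN1, left 1 lower in the hsp31 deletion and 0 higher in the hsp33 against the hsp32 deletion. Beside these stood 1521 and 570 of the 5003 probes kept. Fits to the 2 groups alone gave 0 higher and 1 lower in the hsp33 against the hsp32 deletion, beside 414 and 441 of all tested probes. Array weights gave 1 higher and 2 lower in the hsp33 against the hsp31 deletion, beside 299 and 315 of all tested probes. Within slide 1 the hsp32 and hsp33 deletions have 1 array each, so counts of calls for them are not given. Within slide 2 the same holds for the hsp31 deletion and wild type. The hsp33 against the hsp32 deletion had 1 permease lower there, beside 462 of the 5863 tested probes. Leaving out each array in turn gave 1 to 3 lower in the hsp31 deletion and 1 to 4 lower in the hsp33 deletion against wild type, 1 to 2 lower in the hsp33 against the hsp31 deletion, and 0 to 1 higher and 1 to 2 lower in the hsp33 against the hsp32 deletion. These fits tested 5863 to 5896 probes. In the same order, all tested probes gave 1544 to 1823, 1718 to 2038, 44 to 178, 267 to 663 and 237 to 687.

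Direction turned in values that did not pass in the full fit, with log2 values as follows. In the hsp32 deletion against wild type, DIP5 measured 0.0559 with the 75th percentile and 0.0657 within slide 1, TAT1 0.18 with the 75th percentile and LYP1 0.105 within slide 2, and without single arrays DIP5 ranged from -0.0884 to 0.0828 and LYP1 from -0.144 to 0.00860. In the hsp33 deletion against wild type, DIP5 measured -0.0158 with array weights, -0.175 with median scaling, -0.00471 with no background correction, -0.0628 with the authors' series values, -0.0239 within slide 1 and -0.0487 within slide 2, and without single arrays -0.0710 to 0.0423. TAT1 measured 0.27 with the 75th percentile and 0.0384 with median scaling, and CAN1 0.0439 within slide 2. GNP1 in the hsp31 deletion measured 0.0837 within slide 1 and -0.0808 to 0.0843 without single arrays. Between the hsp32 and hsp31 deletions, AGP1 measured -0.0320 within slide 2, and LYP1 -5.30e-04 with array weights and -0.0236 to 0.0718 without single arrays. For the hsp33 against the hsp31 deletion, AGP1 measured -0.0864 and BAP3 -0.129 within slide 2, CAN1 -0.133 within slide 1, BAP2 0.00295 with the 75th percentile and TAT2 -0.139 to 0.0104 without single arrays. For the hsp33 against the hsp32 deletion, DIP5 measured -0.00266 with the 75th percentile, -0.0326 with the authors' series values and -0.0818 to 0.0899 without single arrays, GNP1 -0.0458 with array weights and -0.0178 to 0.245 without single arrays, and TAT2 -0.0408 with array weights. The part of signal over background in the spread of CAN1 and TAT1, the dimmest permeases by intensity, was not tested.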
